A study of Rattus norvegicus with 20 samples.

Results

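Liver transcripts of 9 genes that respond to drugs through the nuclear receptors CAR and PXR were followed in rats fed sesame lignans. The genes were Cyp2b1, Cyp3a9, Cyp3a18, Por, Alas1, Aldh1a1, Ces2c, Slco1a4 and Abcc3, and all probe sets whose annotation carries one of these symbols were taken. Of the 9 genes, 8 had a probe set annotated to 1 gene (10 probe sets) and 7 were among the 11576 genes tested. Cyp2b1 was measured only by a probe set annotated to both Cyp2b2 and Cyp2b1, and the Abcc3 probe set lay below the filter level on all 20 arrays.

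Male Sprague-Dawley rats, 4 weeks old on arrival and acclimatised for 7 d, ate a diet with 0.2% sesamin, 0.2% episesamin, 0.2% sesamolin or a lignan-free diet for 15 d. Each group held 7 rats, and liver RNA of 5 of them was measured, 1 Affymetrix array per rat, because the heaviest and the lightest rat of each group were left out. The livers were whole tissue, so fewer cells of a type and less RNA per cell cannot be told apart. Levels below are quantile-normalized intensities, changes are log2 differences ± SE (limma, 4 diet means in a single model), and a gene is called when its adjusted p lies below 0.05. The offset added before log2 understates changes of dim genes.

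CAR (Nr1i3) and PXR (Nr1i2) are receptors that bind DNA with RXR as partner and raise the transcription of genes that oxidise, conjugate and transport foreign compounds and bile acids. CAR is the main mediator of the liver's response to phenobarbital, and its best known rodent targets are the Cyp2b genes. PXR is best known for the Cyp3a genes, and both receptors share many targets. Sesamin and episesamin are epimers, which differ in the configuration where one aryl group joins the furofuran core. Sesamolin has an additional oxygen atom between one aryl group and that core.

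Promoters are shown for 4 genes that were higher together with episesamin and sesamolin, and for Cyp3a9. Cyp3a9 had lower means with both lignans, but neither change was called. Each window holds the 250 bases before the transcript start in RefSeq, build GRCr8. Both receptors bind repeats of a half-site of the form AGGTCA or AGTTCA, and a match to either on either strand is in capitals. The windows are chr1:227537370-227537619 (+) for Aldh1a1, chr1:270376951-270377200 (+) for Ces2c, chr12:26635810-26636059 (-) for Por, chr4:176495847-176496096 (-) for Slco1a4 and chr12:21960161-21960410 (-) for Cyp3a9.
Aldh1a1: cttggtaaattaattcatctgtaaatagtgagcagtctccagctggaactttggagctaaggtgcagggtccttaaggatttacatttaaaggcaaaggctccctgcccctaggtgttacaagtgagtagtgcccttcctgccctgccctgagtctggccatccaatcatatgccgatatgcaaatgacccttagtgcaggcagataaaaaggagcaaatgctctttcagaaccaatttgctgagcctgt
Ces2c: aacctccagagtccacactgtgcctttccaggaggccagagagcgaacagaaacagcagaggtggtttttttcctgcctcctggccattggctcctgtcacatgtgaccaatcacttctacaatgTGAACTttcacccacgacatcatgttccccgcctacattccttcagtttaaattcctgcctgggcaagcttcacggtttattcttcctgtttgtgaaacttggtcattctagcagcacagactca
Por: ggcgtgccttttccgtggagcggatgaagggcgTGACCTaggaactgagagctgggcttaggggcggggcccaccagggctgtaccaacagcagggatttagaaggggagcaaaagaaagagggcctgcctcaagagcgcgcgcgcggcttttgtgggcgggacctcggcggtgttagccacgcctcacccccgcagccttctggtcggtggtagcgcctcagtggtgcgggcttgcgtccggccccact
Slco1a4: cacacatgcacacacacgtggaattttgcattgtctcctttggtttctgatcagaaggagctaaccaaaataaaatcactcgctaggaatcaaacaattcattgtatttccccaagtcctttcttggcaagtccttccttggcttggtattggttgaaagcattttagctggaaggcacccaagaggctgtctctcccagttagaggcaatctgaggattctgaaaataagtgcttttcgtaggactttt
Cyp3a9: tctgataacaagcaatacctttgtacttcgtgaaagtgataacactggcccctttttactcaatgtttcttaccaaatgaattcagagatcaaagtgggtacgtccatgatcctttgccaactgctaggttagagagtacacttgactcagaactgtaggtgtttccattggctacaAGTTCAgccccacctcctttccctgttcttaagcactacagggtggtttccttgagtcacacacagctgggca

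A RefSeq promoter was matched for 8 of the 9 genes, all but Abcc3. The Ces2c window held AGTTCA on the minus strand, 125 to 120 bases before the start. The Por window held AGGTCA on the minus strand, 217 to 212 bases before the start. The Cyp3a9 window held AGTTCA on the plus strand, 73 to 68 bases before the start. Cyp3a18, not shown, held AGTTCA on both strands in separate places, and the windows of Aldh1a1, Slco1a4, Cyp2b1 and Alas1 held neither half-site. AGGTCA occurred in 14.1% and AGTTCA in 12.2% of 33469 rat promoter windows of this length. None of the 8 windows held a direct repeat of these half-sites 4 bases apart, a form found in 5 of all windows, nor an everted repeat 6 bases apart, found in 1. A match describes letters in this window and is not a site. Sequence farther upstream was not searched, so a window without a match does not show that a gene lacks such half-sites.

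Across the 4 diets, 4 of the 7 genes tested differed in a limma F test, against 4.89% of all genes tested. The genes were chosen with earlier results of these data known, so such shares are only a description. These were Aldh1a1 (adjusted p = 0.000263), Slco1a4 (adjusted p = 0.000446), Ces2c (adjusted p = 0.000842) and Por (adjusted p = 0.00895). Diet held 79.2%, 78.1%, 75.9% and 67.6% of their variance over the arrays. Alas1 (adjusted p = 0.0747), Cyp3a9 (adjusted p = 0.0806) and Cyp3a18 (adjusted p = 0.743) did not pass.

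**Figure D1:**
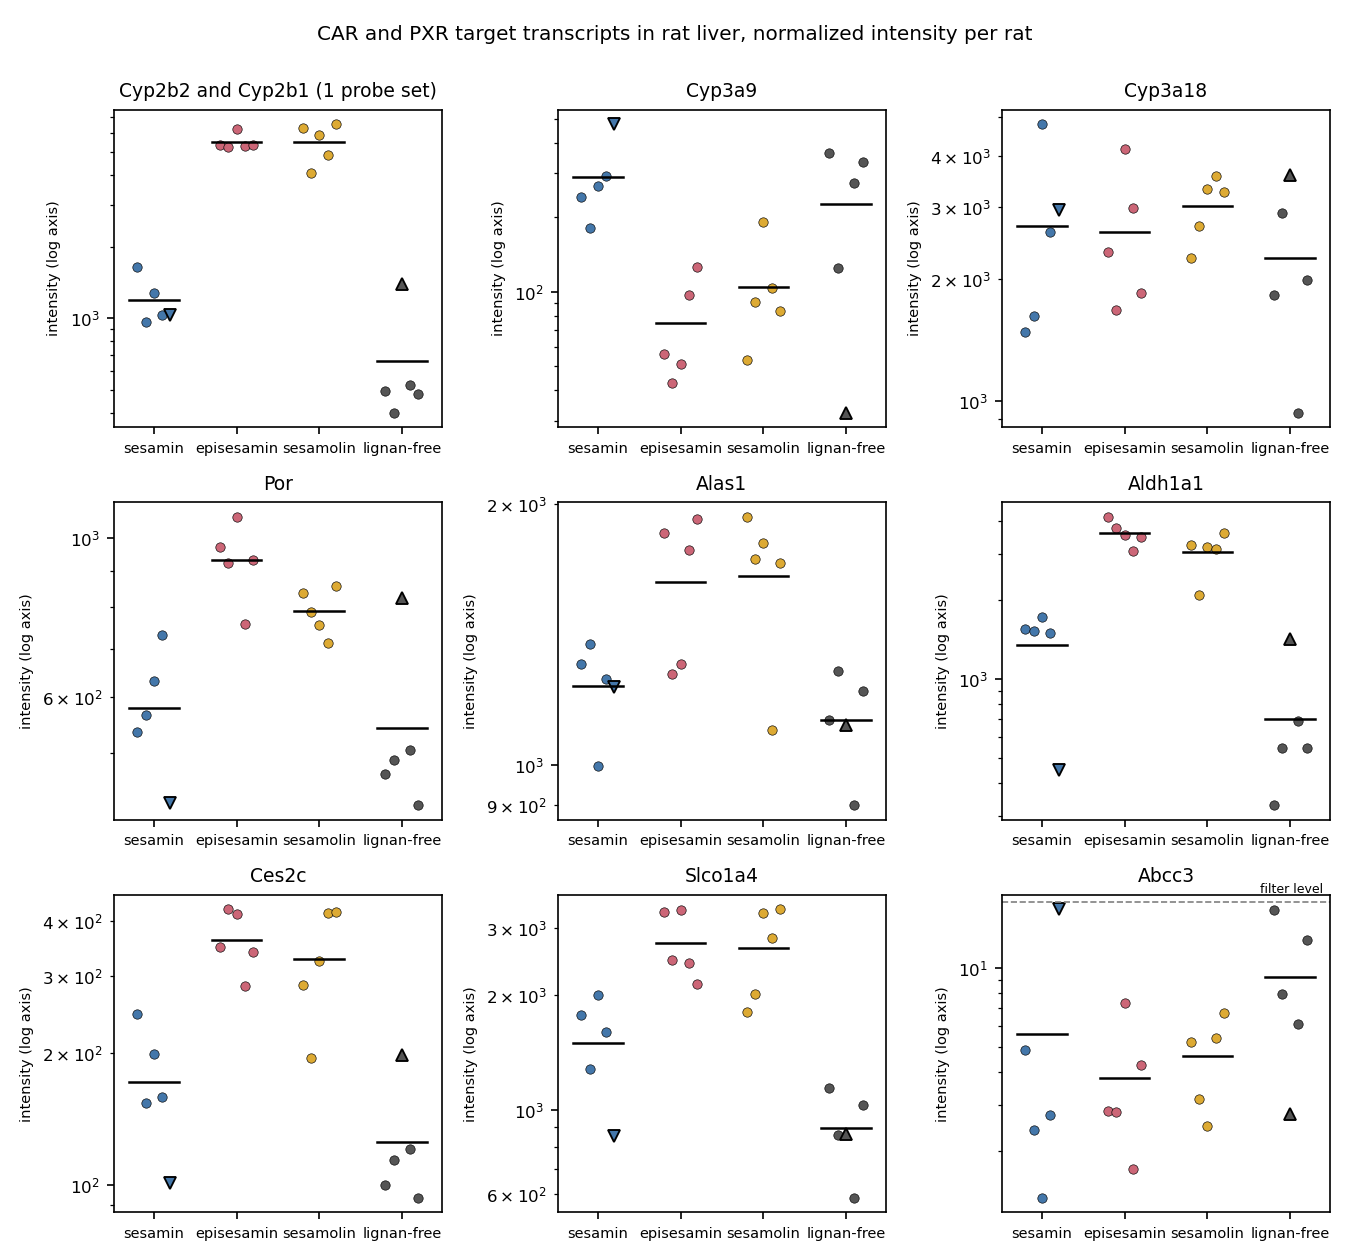
Normalized intensity (log axis, 1 point per rat, 5 rats per diet, line at the mean) of the 8 genes' main probe sets and of the probe set shared by Cyp2b2 and Cyp2b1. The triangle pointing up is lignan-free rat 3 and the one pointing down is sesamin rat 5. The Cyp2b panel shows episesamin and sesamolin rats between 4072 and 6561, above all sesamin and lignan-free rats.

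The largest change among these probe sets was in the one shared by Cyp2b2 and Cyp2b1, the phenobarbital-inducible cytochromes P450 of rat liver, whose signal cannot be assigned to either gene. Its intensity was 1650, 968, 1282, 1031 and 1032 in sesamin rats, 5352, 5268, 6239, 5290 and 5352 in episesamin rats, 6311, 4072, 5889, 4854 and 6561 in sesamolin rats and 494, 401, 1401, 522 and 479 in lignan-free rats. Every episesamin and sesamolin rat stood above every sesamin and lignan-free rat, and the sesamin range overlapped the lignan-free range only through lignan-free rat 3. In a limma fit with each probe set on its own, the probe set rose 9.26-fold with episesamin (3.21 ± 0.25, adjusted p = 6.48e-08) and 9.21-fold with sesamolin (3.20 ± 0.25, adjusted p = 7.9e-08). In those comparisons 3.79% and 4.96% of 16263 probe sets were called. With sesamin the value was 0.99 ± 0.25 (limma adjusted p = 0.154), not called, where 0.338% of probe sets were.

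Por encodes the reductase that hands electrons to all microsomal P450s. Its brighter probe set read 535, 565, 631, 732 and 425 in sesamin rats, 972, 923, 1071, 759 and 930 in episesamin rats, 838, 789, 756, 714 and 858 in sesamolin rats and 467, 490, 823, 505 and 422 in lignan-free rats. The episesamin and sesamolin rats overlapped the lignan-free rats only through lignan-free rat 3. Por rose by 0.81 ± 0.16 with episesamin (limma adjusted p = 0.00523) and by 0.58 ± 0.16 with sesamolin (limma adjusted p = 0.0364), and was at 0.11 ± 0.16 with sesamin (limma adjusted p = 0.936). The dimmer probe set gave 1.02 ± 0.22 with episesamin (limma adjusted p = 0.0106) and 0.55 ± 0.22 with sesamolin (limma adjusted p = 0.171). The dimmer values come from the fit of each probe set on its own, where the brighter was at limma adjusted p = 0.0442 with sesamolin. The probe sets therefore differed on the sesamolin call, at changes of similar size. The call in the fit of genes also depends on single rats. It was lost without any 1 of 8 rats, lignan-free rats 1, 2, 4 and 5 and sesamolin rats 1, 2, 3 and 5, with an adjusted p of up to 0.097. In 6 of 16 other settings it was lost too, with an adjusted p of up to 0.304.

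Alas1 encodes the rate-limiting enzyme of heme synthesis, and P450s carry heme. Alas1 read 1310, 1380, 999, 1258 and 1231 in sesamin rats, 1852, 1275, 1310, 1770 and 1920 in episesamin rats, 1934, 1726, 1803, 1099 and 1710 in sesamolin rats and 1127, 1283, 1114, 899 and 1217 in lignan-free rats. Sesamolin rat 4 lay among the lignan-free rats and the other 4 sesamolin rats lay above them. Alas1 rose by 0.53 ± 0.16 with sesamolin (limma adjusted p = 0.049). With episesamin it was at 0.51 ± 0.16 (limma adjusted p = 0.0658, but 0.0422 without episesamin rat 2 and 0.0309 without sesamolin rat 4) and with sesamin at 0.13 ± 0.16 (limma adjusted p = 0.915). The sesamolin call stood at the threshold and was lost in 12 of 16 other processing settings and without any 1 of 16 of the 20 rats (adjusted p up to 0.371 and 0.127).

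Aldh1a1 encodes a cytosolic aldehyde dehydrogenase that oxidises retinal to retinoic acid. Its levels were 1544, 1526, 1726, 1497 and 447 in sesamin rats, 4157, 3774, 3542, 3069 and 3464 in episesamin rats, 3238, 2096, 3184, 3140 and 3617 in sesamolin rats and 328, 544, 1415, 691 and 542 in lignan-free rats. No episesamin or sesamolin rat overlapped the sesamin or lignan-free rats. In sesamin rats 1 to 4 Aldh1a1 exceeded every lignan-free rat, while sesamin rat 5 lay below 4 of the 5. Aldh1a1 rose 5.69-fold with episesamin (2.51 ± 0.34, limma adjusted p = 0.000131) and 4.78-fold with sesamolin (2.26 ± 0.34, limma adjusted p = 0.000434). With sesamin it was at 0.96 ± 0.34 (limma adjusted p = 0.457).

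Ces2c encodes a carboxylesterase of the endoplasmic reticulum that hydrolyses ester and amide drugs. It read 246, 154, 199, 158 and 101 in sesamin rats, 348, 425, 415, 284 and 339 in episesamin rats, 285, 195, 324, 417 and 418 in sesamolin rats and 99.9, 113, 198, 121 and 93.2 in lignan-free rats. The episesamin rats stood apart from the lignan-free rats, and the sesamolin rats met them only where sesamolin rat 2 lay just under lignan-free rat 3. Ces2c rose 2.89-fold with episesamin (1.53 ± 0.24, limma adjusted p = 0.000561) and 2.55-fold with sesamolin (1.35 ± 0.24, limma adjusted p = 0.00192), and was at 0.43 ± 0.24 with sesamin (limma adjusted p = 0.741).

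Slco1a4 encodes an uptake transporter for bile acids, steroids and drugs on the blood side of the hepatocyte. Its brighter probe set read 1766, 1279, 1999, 1596 and 852 in sesamin rats, 3301, 2463, 3342, 2420 and 2136 in episesamin rats, 1801, 2009, 3281, 2821 and 3353 in sesamolin rats and 1138, 858, 865, 586 and 1031 in lignan-free rats. All episesamin and sesamolin rats lay above the lignan-free rats, and here lignan-free rat 3 was in the middle of its group. Slco1a4 rose 3.06-fold with episesamin (1.61 ± 0.24, limma adjusted p = 0.000259) and 2.93-fold with sesamolin (1.55 ± 0.24, limma adjusted p = 0.000426). With sesamin it was at 0.71 ± 0.24 (limma adjusted p = 0.371). The dimmer probe set also rose with both, by 1.81 ± 0.27 with episesamin (limma adjusted p = 0.000331) and 1.70 ± 0.27 with sesamolin (limma adjusted p = 0.000706).

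Neither Cyp3a gene was called against the lignan-free diet, although Cyp3a genes are the textbook targets of PXR. Cyp3a9, a P450 with higher levels in female than in male rat liver, read 241, 180, 267, 292 and 475 in sesamin rats, 56.1, 42.7, 51.1, 97.3 and 126 in episesamin rats, 53.2, 91.1, 192, 103 and 83.2 in sesamolin rats and 363, 125, 32.4, 275 and 334 in lignan-free rats. Every sesamin rat lay above every episesamin rat, while the lignan-free rats overlapped both and held the lowest of all 20, rat 3. Sesamolin rat 3 lay above sesamin rat 2. The change was -1.25 ± 0.50 with episesamin (limma adjusted p = 0.169), -0.80 ± 0.50 with sesamolin (limma adjusted p = 0.393) and 0.67 ± 0.50 with sesamin (limma adjusted p = 0.842, and 0.12 with adjusted p = 0.977 without lignan-free rat 3). Cyp3a18 spread widely within diets, from 1481 to 4804 in sesamin rats, 1674 to 4176 in episesamin rats, 2248 to 3578 in sesamolin rats and 934 to 3605 in lignan-free rats. Its changes were 0.27 ± 0.35 with sesamin, 0.27 ± 0.35 with episesamin and 0.55 ± 0.35 with sesamolin, and the widest interval bound, 1.28 with sesamolin, leaves room for a change of more than 2-fold. Without lignan-free rat 4 they were -0.01 with sesamin, -0.01 with episesamin and 0.27 with sesamolin, none called.

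Abcc3, an efflux pump for conjugates on the blood side of the hepatocyte, ranged from 1.32 to 16.7 over the 20 arrays, under the filter level of 17.8. It was not well above the low end of the arrays in any diet, so no fold is given. Cyp3a, Ces2 and Slco1a genes have close relatives, and cross-hybridisation of their probe sets was not tested.

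**Figure D2:**
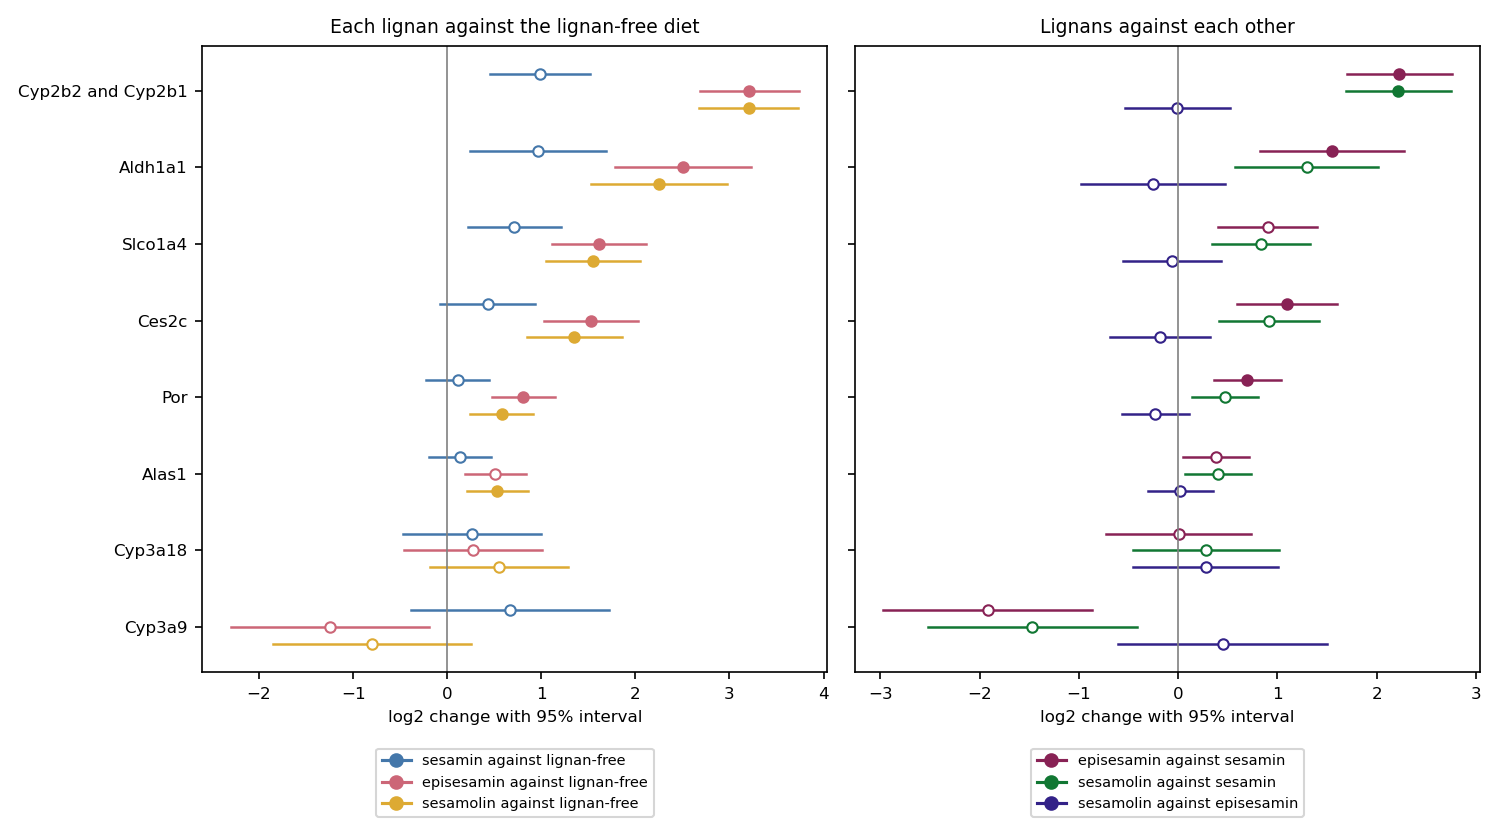
Log2 change (x axis) with its 95% interval for each gene (rows) against the lignan-free diet (left) and between lignans (right), filled where the adjusted p lies below 0.05. Cyp2b, Aldh1a1, Slco1a4, Ces2c and Por are filled for both episesamin and sesamolin, and no point is filled for sesamin or for sesamolin against episesamin.

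Counted together, none of the 7 genes was called with sesamin, where 50 genes or 0.432% of all tested were (limma), and 2 of the 7, Aldh1a1 and Slco1a4, had an unadjusted p under 0.05, against 7.45% of all genes. With episesamin 4 of 7 rose and none fell, against 5.12% of all genes called and 2.91% higher. With sesamolin 5 of 7 rose and none fell, against 6.24% called and 3.28% higher. The median change of the 7 was 0.43 with sesamin, 0.81 with episesamin and 0.58 with sesamolin, where that of all genes was -0.01, -0.02 and -0.01. The 3 comparisons share the lignan-free rats, and the genes were chosen with earlier results of these data known. The counts therefore describe these genes and do not test the pathway. Rats of the 2 diets did not overlap, with all lignan rats higher, for 3 of the 7 genes with episesamin and 2 with sesamolin, where 3.81% and 3.7% of all genes did so.

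The lignans were fed at the same dose and time, so each pair was compared directly. Episesamin exceeded its epimer sesamin for 3 of the 7 genes, where 1.23% of all genes were called and 0.821% higher. Ces2c was higher by 1.10 ± 0.24 (limma adjusted p = 0.0271), Aldh1a1 by 1.55 ± 0.34 (limma adjusted p = 0.0308) and Por by 0.70 ± 0.16 (limma adjusted p = 0.0347), with all 5 episesamin rats above all 5 sesamin rats in each. These calls held when p-values were adjusted over all 6 comparisons together, but each was lost in 5 of 16 other settings. All 3 were lost without sesamin rat 5 or any 1 of episesamin rats 1, 2, 3 and 5. Aldh1a1 also lost its call without sesamin rat 4, Ces2c without sesamin rats 2 or 4, and Por without sesamin rats 1, 2 or 3. The highest adjusted p with 1 rat left out was 0.0681 for Aldh1a1, 0.0803 for Ces2c and 0.106 for Por. Slco1a4 (0.90 ± 0.24) and Cyp3a9 (-1.92 ± 0.50), both with limma adjusted p = 0.0738, were not called, although the rats of the diets did not overlap in either, and Cyp3a9 was called without lignan-free rat 3 (adjusted p = 0.00919). Over all genes 3.64% showed no overlap.

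The shared Cyp2b probe set separated episesamin from sesamin by 2.23 ± 0.25 (limma adjusted p = 0.000114) and sesamolin from sesamin by 2.22 ± 0.25 (limma adjusted p = 9.15e-05), where 1.06% and 1.38% of probe sets were called. Both differences stayed called under all 15 other settings run for it and without any 1 rat. Sesamolin differed from sesamin for none of the 7 genes, where 1.81% of all genes were called (limma). Unadjusted p was under 0.05 for 6 of the 7, all but Cyp3a18, and for 14.5% of all genes. The nearest to the threshold were Ces2c at 0.92 ± 0.24 (limma adjusted p = 0.0569) and Aldh1a1 at 1.29 ± 0.34 (limma adjusted p = 0.063). Without lignan-free rat 3, Aldh1a1 (adjusted p = 0.029), Ces2c (adjusted p = 0.037) and Cyp3a9 (-1.47, adjusted p = 0.0418) were called in that limma fit. Aldh1a1 was called also without lignan-free rat 1 (adjusted p = 0.0469), and Ces2c also without sesamin rat 1 (adjusted p = 0.0325) or sesamolin rat 2 (adjusted p = 0.0208).

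Between sesamolin and episesamin no gene of the 11576 was called, or 0% (663, or 5.73%, had an unadjusted p under 0.05, none of the 7). The difference was -0.25 for Aldh1a1 (95% interval -0.98 to 0.47), -0.18 for Ces2c (-0.68 to 0.32), -0.23 for Por (-0.56 to 0.11) and -0.06 for Slco1a4 (-0.56 to 0.43). For the Cyp2b probe set the difference was -0.01 (-0.54 to 0.52). The intervals of Aldh1a1 and Ces2c reach a difference as large as the 0.58 of Por with sesamolin. Those of the Cyp2b probe set and of the brighter Por and Slco1a4 probe sets do not. The intervals of the dimmer probe sets do, at -0.93 to -0.01 for Por and -0.67 to 0.45 for Slco1a4. The dimmer Por probe set was at -0.47 ± 0.22 (limma adjusted p = 0.875), with all 5 sesamolin rats below all 5 episesamin rats, where 0.803% of all genes showed no overlap.

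Within diets, 2 rats stood apart in several of these genes. Lignan-free rat 3 was the highest of its group for Cyp2b, Por, Aldh1a1, Ces2c and Cyp3a18 and the lowest for Cyp3a9. Its CAR transcript Nr1i3 read 179, against 45.4 to 89.2 in the other lignan-free rats. Sesamin rat 5 was the lowest of its group for Por, Aldh1a1, Ces2c and Slco1a4 and the highest for Cyp3a9. Lignan-free rat 3 is 1 of 6 arrays with a mean raw intensity under 200 (197), while that of sesamin rat 5 was 245, and the part of array brightness in these values was not tested.

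**Figure D3:**
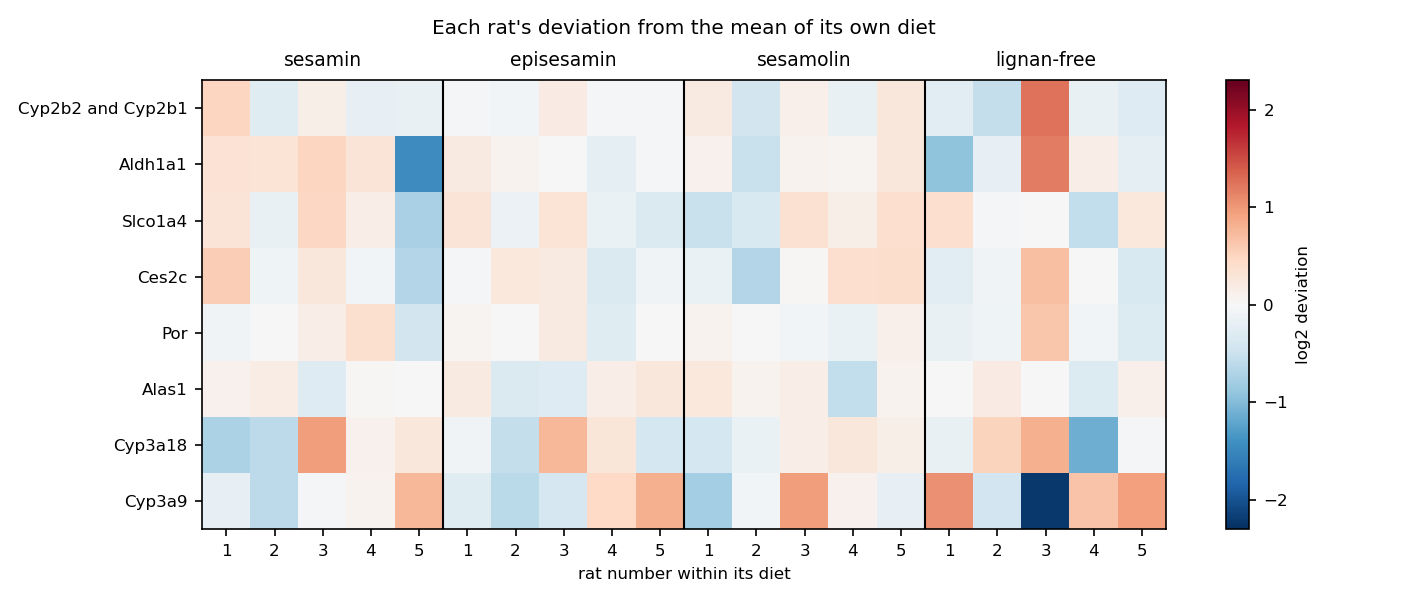
Log2 deviation of each rat (columns) from the mean of its own diet for the 7 genes tested and the shared Cyp2b probe set (rows), red above and blue below the mean. Lignan-free rat 3 is red for Cyp2b and Aldh1a1 (1.17) and darkest blue for Cyp3a9, and sesamin rat 5 is blue for Aldh1a1 (-1.44).

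Over the 20 rats, after taking out diet means, deviations in Aldh1a1 ran with those in Ces2c (Pearson's r = 0.791, Spearman's rho = 0.732), Por (r = 0.763, rho = 0.65) and Cyp2b (r = 0.64, rho = 0.574) and against Cyp3a9 (r = -0.655, rho = -0.499). They ran little with Slco1a4 (r = 0.352), Cyp3a18 (r = 0.097) or Alas1 (r = -0.095). Values of a rat share 1 array. Without the 2 rats, r was 0.575 (rho = 0.521) for Ces2c, 0.362 (rho = 0.442) for Cyp2b, 0.234 (rho = 0.393) for Por and -0.247 (rho = -0.337) for Cyp3a9. These rats hold the extreme deviations of Aldh1a1 itself, so a lower r is partly built into leaving them out.

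Leaving out both rats, a setting chosen after their values were seen and so only a description, brought Aldh1a1 to 1.62 (adjusted p = 0.000163) and Cyp2b to 1.34 (adjusted p = 0.000366) with sesamin in the limma fit. Cyp3a9 came to -1.80 with episesamin (adjusted p = 0.00796) and -1.36 with sesamolin (adjusted p = 0.0386), and to -0.075 with sesamin (adjusted p = 0.984). Sesamin without sesamin rat 5 alone also had Aldh1a1 called (adjusted p = 0.0396), and without lignan-free rat 3 alone Cyp2b was called (1.30, adjusted p = 0.000191), as was Cyp3a9 with episesamin (adjusted p = 0.00933) and with sesamolin (adjusted p = 0.0433). Alas1 with sesamolin lost its call without both (0.53, adjusted p = 0.0915).

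Genes whose level over the 20 arrays was most like that of a member, by Pearson's r, are given as a description. For Aldh1a1 they were Ces2c (r = 0.949), Cyp2j4 (r = 0.932) and Hadhb (r = 0.929). Ces2c had, after Aldh1a1, Hsd17b4 (r = 0.917) and Cbr1 (r = 0.916). Por had Aldh1a1 (r = 0.904), Psmb3 (r = 0.896) and Timm10b (r = 0.879). Slco1a4 had Hsd17b4 (r = 0.933), Adam22 (r = 0.927) and Ehhadh (r = 0.916). These values include the differences between diets.

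The receptors themselves were measured on the same arrays. Nr1i3 averaged 163 ± 51.1 in sesamin rats, 184 ± 33.9 in episesamin rats, 172 ± 81.3 in sesamolin rats and 86.6 ± 54.4 in lignan-free rats (SD, n = 5 each). It rose by 1.19 ± 0.31 with episesamin (limma adjusted p = 0.0323), a call lost in 5 of 16 other settings and without any 1 of lignan-free rats 1, 2, 4 and 5 and episesamin rats 3, 4 and 5 (adjusted p up to 0.0864). It was at 0.98 ± 0.31 with sesamin (limma adjusted p = 0.361) and 1.01 ± 0.31 with sesamolin (limma adjusted p = 0.0605). Without lignan-free rat 3, Nr1i3 was called with sesamin (1.28, limma adjusted p = 0.043) and with sesamolin (1.31, limma adjusted p = 0.00715). Nr1i2, the PXR transcript, was at 0.09 ± 0.16 with sesamin, 0.06 ± 0.16 with episesamin and -0.13 ± 0.16 with sesamolin, none called. Of 9 receptors and partners measured, Nr1i3 with episesamin was the only call against the lignan-free diet, where 5.12% of all genes were called.

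Of 45 other listed CAR and PXR targets, 28 had a probe set and 23 were tested. With sesamin none was called, where 0.432% of all genes were. With episesamin 1 rose and 1 fell (5.12% of all genes called), and with sesamolin 1 rose (6.24% of all genes called). Their median change was -0.06 with sesamin, 0.01 with episesamin and 0.07 with sesamolin. Ugt2b1, a glucuronosyltransferase, read 578, 502, 249, 514 and 448 in sesamin rats, 1336, 1770, 1699, 1726 and 3332 in episesamin rats, 808, 1823, 2338, 1135 and 1330 in sesamolin rats and 694, 1152, 779, 804 and 199 in lignan-free rats. Every episesamin rat lay above every lignan-free rat. Ugt2b1 rose by 1.56 ± 0.39 with episesamin (limma adjusted p = 0.0255), and this call was lost in 4 of 16 other settings and without episesamin rat 5 (adjusted p = 0.0628).

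The gene that fell with episesamin was Abcb1a, an efflux pump, at -1.24 ± 0.35 (limma adjusted p = 0.0454). For it 4 of 5 episesamin arrays and 1 lignan-free array lay under the filter level, so the size of the fall is uncertain. The call was lost in 9 of 15 other settings and without any 1 of 15 rats (adjusted p up to 0.118). The values are of the brighter of 2 Abcb1a probe sets tested, and the other is not given here. The gene that rose with sesamolin was Cyp2c6v1, a liver P450, by 0.29 ± 0.08 (limma adjusted p = 0.0291), a call lost in 6 of 16 other settings (adjusted p up to 0.501) and without any 1 of 7 rats (adjusted p up to 0.0684). The brightest uncalled genes, Cyp2c7, Cyp2b3 and Gstm1, lay between -0.24 and 0.04 with each lignan. Cyp2b3, a Cyp2b gene that phenobarbital does not induce in rats, averaged 8867 ± 499 with sesamin, 8761 ± 484 with episesamin, 8490 ± 329 with sesamolin and 8602 ± 399 without lignan (SD, n = 5 each).

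**Figure D4:**
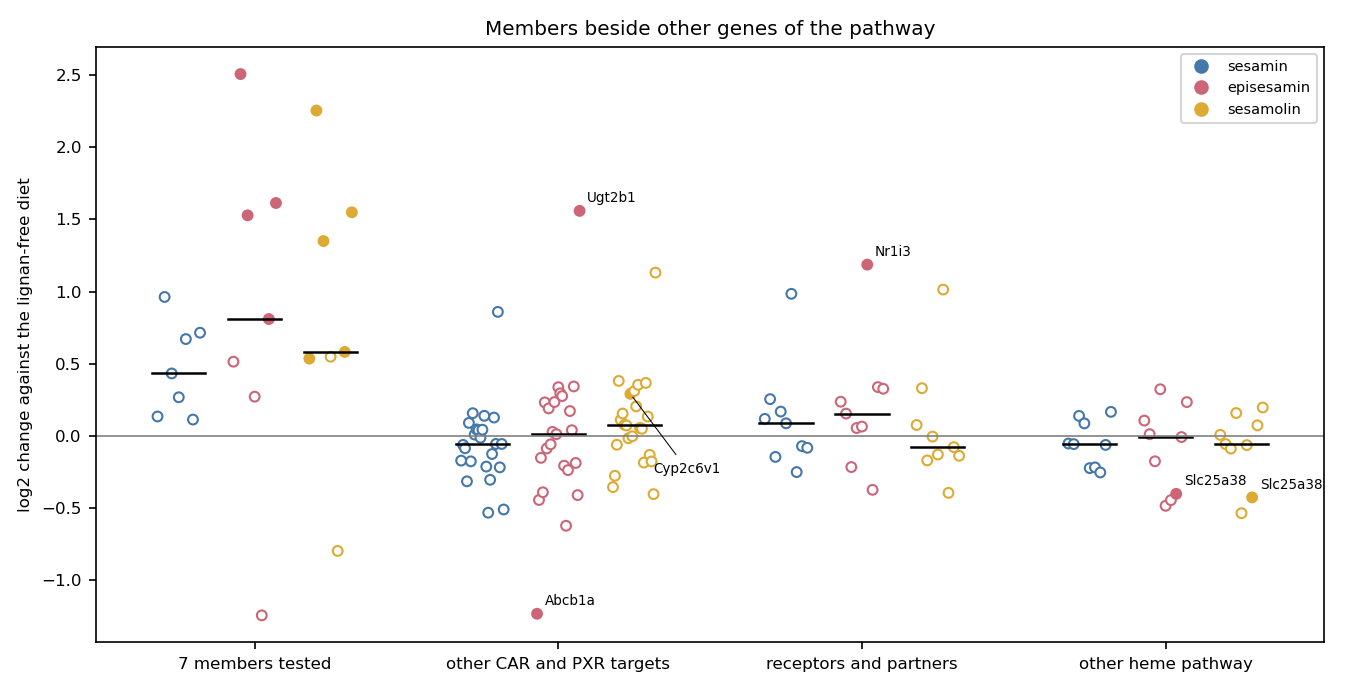
Log2 change against the lignan-free diet (y axis) of the 7 genes tested and of 3 gene lists, 1 point per gene, filled where the adjusted p lies below 0.05, with the median as a line. The medians of the 7 genes lie at 0.43, 0.81 and 0.58, and those of the other targets at -0.06, 0.01 and 0.07. Genes and lists were chosen with earlier results of these data known.

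Beside Alas1, 9 further genes of heme synthesis and breakdown were tested. Slc25a38, the mitochondrial glycine carrier that feeds heme synthesis, fell by 0.40 ± 0.11 with episesamin (limma adjusted p = 0.0404) and by 0.43 ± 0.11 with sesamolin (limma adjusted p = 0.0273). Both calls were lost without some single rats, 7 for episesamin and 6 for sesamolin (adjusted p up to 0.107 and 0.0712), and in 5 and 3 of 16 other settings (adjusted p up to 0.14 and 0.0608). None of the others was called, among them Alad, Urod and Fech, later enzymes of the pathway. Of all genes, 5.12% were called with episesamin and 6.24% with sesamolin.

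Markers of cell types and zones were read on the same arrays. Of all genes, 5.12% were called with episesamin and 6.24% with sesamolin, in either direction. All 7 hepatocyte markers measured passed the filter and none was called, with a summed level of 66231 to 74734. With sesamolin 3 of 6 Kupffer cell markers fell (Clec4f, Csf1r and Adgre1), and their summed level was 2342 to 4112 in sesamin rats, 2599 to 3153 in episesamin rats, 2167 to 3124 in sesamolin rats and 3606 to 3988 in lignan-free rats. Of 6 endothelial markers 2 (Kdr and Lyve1) fell with both episesamin and sesamolin, and the other 4 were not called, in a list that ran from -0.60 to 0.30 with episesamin and -0.46 to 0.26 with sesamolin. Of 8 periportal genes 3 were lower with episesamin and 3 with sesamolin, and of 8 pericentral genes 1 was lower with each. The summed periportal level was 17220 to 21862 in sesamin rats, 14176 to 16233 in episesamin rats, 13501 to 19133 in sesamolin rats and 19487 to 23342 in lignan-free rats. The part of these in the CAR and PXR results was not tested. Array brightness averaged 236 ± 27.6 with sesamin, 213 ± 36.1 with episesamin, 221 ± 45.3 with sesamolin and 247 ± 29.2 without lignan (SD, n = 5 each; exact permutation p = 0.54, 0.151 and 0.262, two-sided).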

How the data were processed

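Rat liver RNA was measured on 20 Affymetrix arrays, 5 per diet. The authors deposited linear intensity values for 31099 probe sets, and array means differed 1.7-fold, so the deposited intensity values were not on a common scale. How scans were summarised, and by which software, was not given in the sources used here.

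Quantile normalization was applied, 5.85 (the 20th percentile) was added and log2 taken. Of the probe sets, 20832 had 1 symbol in the platform annotation, 436 several and 9831 none listed. A probe set was kept when 5 or more arrays exceeded 17.8, the 40th percentile, and the brightest stood for its gene. A model with 4 diet means was fitted in R 4.3.3 with limma 3.58.1, leaving 16 residual degrees of freedom and 2.59 for the prior. Tests were two-sided, with Benjamini-Hochberg adjustment over the 11576 genes of each of 6 comparisons, or over 16263 probe sets in the fit of each probe set on its own, which includes probe sets with several symbols.

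All 9 genes are named. From each list, called genes (up to 6) and up to 3 uncalled genes of highest level may be named, and for each gene called by the F test the 3 most correlated genes. Genes and lists were chosen with earlier results of these data known. The fit was tested on simulated data. The number of arrays limits precision, and 1 rat stood behind each array. Alternatives were other scalings, offsets, filters, probe set rules, variance models, covariates and left-out arrays.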

Additional observations from a re-analysis of the deposited data

Results flagged for a closer look

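In each diet and probe set, the gap between an extreme rat and its nearest neighbour was divided by the diet's range, both on the log2 scale. By Dixon's 95% limit for 5 samples, 6 of 44 groups held a rat that stood apart. Levels beside the ratios are intensities, from which the ratios do not follow directly. Chance alone gives about 1 in 20 for a single group. The 44 groups share rats and include Abcc3, under the filter level on all arrays, so 6 of 44 is only a description. Aldh1a1 was low in sesamin rat 5, at 447 against 1497 to 1726 in the other 4 (ratio 0.894), and in sesamolin rat 2, at 2096 against 3140 to 3617 (ratio 0.741). In lignan-free rat 3 the brighter Por probe set, but not the dimmer, stood apart, high at 823 against 422 to 505 (ratio 0.733). The probe set shared by Cyp2b2 and Cyp2b1 was high there at 1401 against 401 to 522 (ratio 0.79). This shared probe set was also high in episesamin rat 3, at 6239 against 5268 to 5352 (ratio 0.907). Alas1 was low in sesamolin rat 4, at 1099 against 1710 to 1934 (ratio 0.783).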

How the results depend on the processing

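The number of the 7 genes called with sesamolin against the lignan-free diet was 5, and was 3 with median scaling, with no normalization between arrays, with probe sets averaged per gene, with a fit of the compared groups alone, with array brightness as a covariate and with p-values adjusted over all comparisons together, and 4 with no offset, no filter, array weights, without the 6 dim arrays (mean raw intensity under 200) and with an RNA quality covariate (actin 3' over 5' signal). For episesamin against sesamin it was 3, and was 0 with no normalization, without the dim arrays and with the actin covariate, 2 with median scaling, 4 with array weights and without lignan-free rat 3 and sesamin rat 5, 1 with the compared groups alone and with the brightness covariate, and 5 with the filter at the 60th percentile. Counts here and with single rats left out take calls in either direction. The 1 with the compared groups alone was Cyp3a9, lower with episesamin (-1.92, limma adjusted p = 0.0226). Cyp3a9, again lower, was also among the 4 and among the 5. For sesamolin against sesamin the number was 0, and was 1 with an offset of 16, with trended and robust eBayes and without lignan-free rat 3 and sesamin rat 5, and 2 with the 60th percentile filter and with array weights. For sesamin against the lignan-free diet it was 0, and was 1 without those 2 rats. The actin covariate and the removal of both rats were chosen after seeing the data. The cause of these shifts was not tested.

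Leaving out each rat in turn gave 0 to 1 genes for sesamin, 4 to 5 for episesamin and 3 to 5 for sesamolin against the lignan-free diet, 0 to 4 for episesamin against sesamin, 0 to 3 for sesamolin against sesamin, 0 for sesamolin against episesamin and 4 to 5 in the F test. Calls of Aldh1a1, Ces2c and Slco1a4 with episesamin and sesamolin, and those of the Cyp2b probe set, held in every setting run. Por with episesamin was called in all but the fit with no normalization (0.56, adjusted p = 0.121), where the median change of all genes was -0.25 (-0.13 with median scaling). The Cyp2b probe set with sesamin was also called with array weights (adjusted p = 0.0208) and without the dim arrays (adjusted p = 0.000688). Of 2562 values of single genes and probe sets over all settings, 2348 kept direction and side of the threshold, 133 lost and 35 gained a call, 46 uncalled values changed sign and 0 called ones did.

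With the replicate number as a block, counts were 0 with sesamin, 4 with episesamin and 5 with sesamolin against the lignan-free diet, 3 for episesamin against sesamin, 0 for both other pairs and 4 in the F test, as without it. The deviations of rats of the same number correlated at 0.0631 on average over 30 pairs (-0.0593 to 0.247), so not every pair passed 0.1. Over 120 other pairs the average was -0.0156 (-0.15 to 0.135). Of 20 rats 10 correlated best with their own number, where 30 pairs shared a number and 120 did not. That is a hint from the data and not from the design, and the labels tie the numbers to nothing shared.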
